A study of Homo sapiens with 24 samples.

Results

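The comparison described here set NC-Guide2 against NC-Guide1, a pair of non-targeting single guide RNAs (sgRNAs) that served as negative controls in a CRISPR interference study of GATA1. Both were carried by K562, a human erythroleukaemia line that makes embryonic and fetal globins and is of erythroid and megakaryocyte character. The members were the 6 libraries of these 2 sgRNAs, 3 biological replicates each, out of 24 libraries in the series, and they were taken by their labels. All 24 shared a doxycycline-switched fusion of nuclease-dead Cas9 with the KRAB repressor, transduction with 1 sgRNA, 24 hours of doxycycline, and polyadenylated RNA from 10000 lysed cells. The other 18 libraries carried NC-Guide3 or NC-Guide4, also non-targeting, an sgRNA for the GATA1 start site (GATA1TSS), or an sgRNA for eHDAC6, a putative enhancer of GATA1. Whether the cells were a clone or a pool, and whether the 3 replicates of an sgRNA came from separate transductions, is not stated in the labels. Every p-value here therefore measures the spread between these libraries. Each sgRNA came with its own cultures, so an effect of the sgRNA and one of its cultures cannot be told apart.

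A non-targeting sgRNA loads the Cas9-KRAB protein but has no intended site in the genome, so 2 of them are used to show how far control cultures differ by themselves. Several known programs of gene expression follow the state of a culture. Metallothioneins are small zinc-binding and copper-binding proteins whose genes are switched on by the zinc sensor MTF1. The integrated stress response acts through phosphorylation of the initiation factor eIF2 and the transcription factor ATF4, and raises genes for amino acid synthesis and tRNA charging. The heat shock factor HSF1 raises cytosolic chaperones, the unfolded protein response raises chaperones of the endoplasmic reticulum, and ribosome biogenesis follows growth.

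Total counts of the 6 libraries ran from 7327820 (NC-Guide1 replicate 1) to 14460963 (NC-Guide1 replicate 2), within the series range of 4290343 to 23205811. The count table had 21925 entries, of which 12318 had counts high enough to be tested and 3803 were at 0 in all 6 libraries. Of 8 genes listed as high in K562, among them HBG1, HBG2 and GATA1, none was at 0 in any of the 6, while CDKN2A, which the line has lost, was at 0 in all 6. The myeloid markers CD14 and S100A8 and the fibroblast markers COL1A2 and LUM were also at 0 in all 6. Other members of these marker lists had counts in every library: LYZ 593 to 1160, SPI1 433 to 875 and COL1A1 82 to 241. On principal component 1, which held 41.5% of the variance of the 2000 most variable genes, the NC-Guide1 libraries lay at -21.0, -8.11 and -7.62 and the NC-Guide2 libraries at 25.6, 6.30 and 4.74. Replicate 1 of each sgRNA was thus the extreme library of its group, and the counts below are set beside those of fits without these libraries where they move.

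GATA1 and HDAC6, which neither sgRNA targets, were read first. GATA1, the zinc-finger factor of erythroid and megakaryocyte cells, stood at 387, 374 and 368 CPM (counts scaled to a common library total, with TMM factors) in NC-Guide1 and at 278, 376 and 348 CPM in NC-Guide2. The groups overlapped, and the log2 difference of -0.17 did not pass the test (SE 0.10, edgeR Benjamini-Hochberg adjusted p = 0.319). HDAC6, a cytoplasmic deacetylase gene beside GATA1, stood at 201, 201 and 189 CPM and 127, 165 and 175 CPM. Here the groups did not overlap, but the log2 difference of -0.34 was not called either (SE 0.11, edgeR Benjamini-Hochberg adjusted p = 0.088).

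A total of 519 genes were called between the sgRNAs, which is 4.21% of the genes tested: 219 (1.78%) were higher and 300 (2.44%) lower in NC-Guide2. A gene was called at a Benjamini-Hochberg adjusted p under 0.05 in edgeR's quasi-likelihood test. The lower genes held metallothioneins, genes of the integrated stress response, PHGDH of serine synthesis and chaperones of the endoplasmic reticulum. The higher genes held cytosolic chaperones and factors of ribosome assembly, splicing and translation initiation. Changes were small: the median log2 fold change was 0.52 among the higher genes and -0.54 among the lower ones, and 1 of the 219 and 35 of the 300 lay beyond 1 log2 unit. At an unadjusted p under 0.05 there were 3037 genes (24.7%). All 3 libraries of NC-Guide2 lay above all 3 of NC-Guide1 for 2018 genes (16.4%) and below them for 2058 (16.7%), so the groups did not overlap for 4076 (33.1%).

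**Figure D1:**
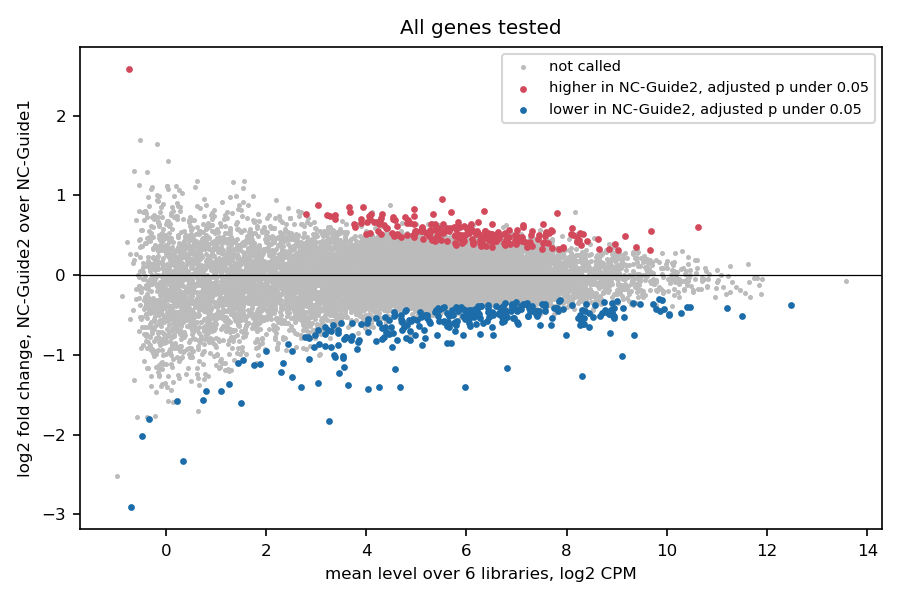
Log2 fold change of NC-Guide2 over NC-Guide1 (y axis) against the mean level over the 6 libraries in log2 CPM (x axis) for the 12318 genes tested. Of the 219 genes called higher (red), 1 lies beyond 1 log2 unit, and of the 300 called lower (blue), 35 do.

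The number of calls depended on which libraries entered the fit. Without NC-Guide1 replicate 1, edgeR called 0 of 12549 genes, although 2188 still had an unadjusted p under 0.05, and MT2A, one of the genes with the smallest p over 6 libraries, had an adjusted p of 0.0553. This loss was not particular to replicate 1: without NC-Guide1 replicate 2 edgeR called 12 genes (0.0963%), and without NC-Guide1 replicate 3 it called 22 (0.177%). No gene list described below therefore had a call in the uncorrected fit without NC-Guide1 replicate 1. Without NC-Guide2 replicate 1, edgeR called 1124 genes (8.94%), and without replicate 1 of both sgRNAs 1542 (12.4%), of which 734 were higher and 808 lower. The 519 genes kept their sign in the 3 fits without 1 or both of the replicates numbered 1. All 219 higher genes and 298 of the 300 lower genes had groups that did not overlap. The kept sign was thus largely set by how the genes were chosen and carries no test. Of the 519, 515 were called the same way without NC-Guide2 replicate 1 and 509 without replicate 1 of both. The median absolute log2 fold change of the 519 was 0.50 without NC-Guide1 replicate 1, 0.43 without NC-Guide2 replicate 1 and 0.40 without both. DESeq2 called 1063 genes (8.63%) on all 6 libraries.

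Base composition moved with the comparison. Across the 11755 tested genes with a known transcript GC content, the log2 fold change had a Spearman rho of -0.472 with GC content and 0.0136 with transcript length, as a description over genes of the same 6 libraries. The median GC content was 40.6% in the genes called higher and 55.6% in those called lower, beside 48.1% in all genes tested. NC-Guide2 replicate 1 had the steepest trend: its deviations from the 6-library mean had a rho of -0.661 with GC content, against -0.128 to 0.480 in the other 5 libraries. In the whole series its rho of -0.671 was the lowest, and the other 23 libraries lay between -0.370 and 0.460. Chromosome 19, which is rich in GC, had 1 gene called higher and 41 called lower, and chromosome 5 had 20 higher and 4 lower.

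**Figure D2:**
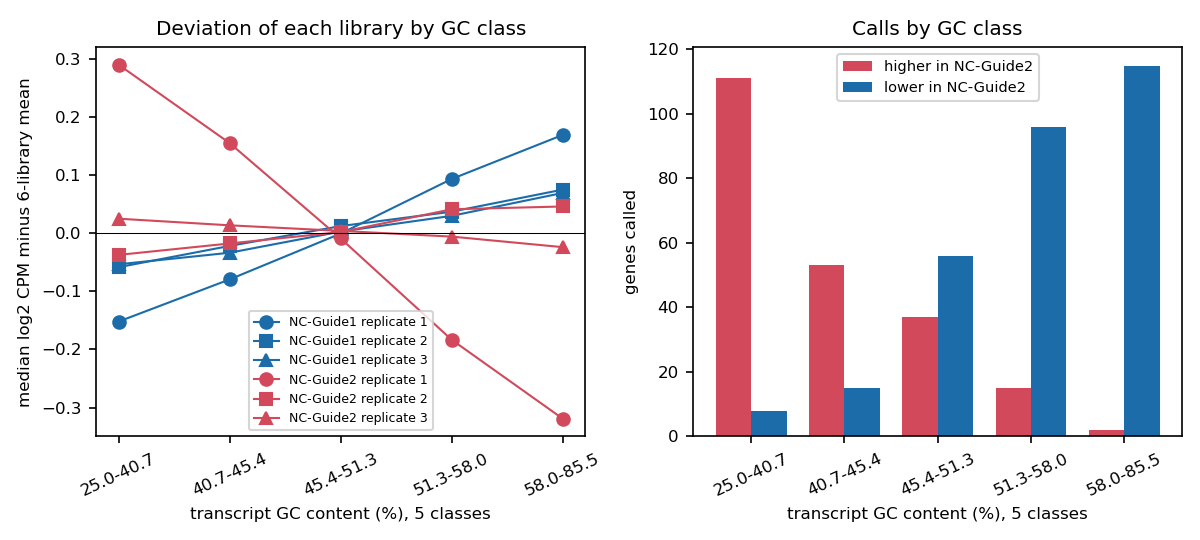
Left, median deviation of each library from the 6-library mean in log2 CPM (y axis) in 5 classes of transcript GC content with 2351 genes each (x axis, percent). NC-Guide2 replicate 1 runs from 0.29 in the lowest class to -0.32 in the highest and NC-Guide1 replicate 1 from -0.15 to 0.17. Right, number of genes called in each class, from 111 higher and 8 lower to 2 higher and 115 lower.

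A fit in which each library's trend with GC content was removed, added after the data had been seen, was therefore set beside the results below. It called 1376 genes (11.2%), 618 higher and 758 lower, with median GC contents of 48.7% and 48.2%. Of the 519 genes, 489 were called in the same direction, 207 higher and 282 lower. With this correction edgeR called 832 genes (6.63%) without NC-Guide1 replicate 1 and 1307 (10.4%) without NC-Guide2 replicate 1. The uncorrected fit had called 0 in the former. Chromosome 19 had a median log2 fold change of -0.12 before the correction and -0.0027 after it. The correction takes out the trend with GC content by construction. The near-equal GC contents of its calls and the shift of chromosome 19 largely follow from that and carry no test.

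**Figure D3:**
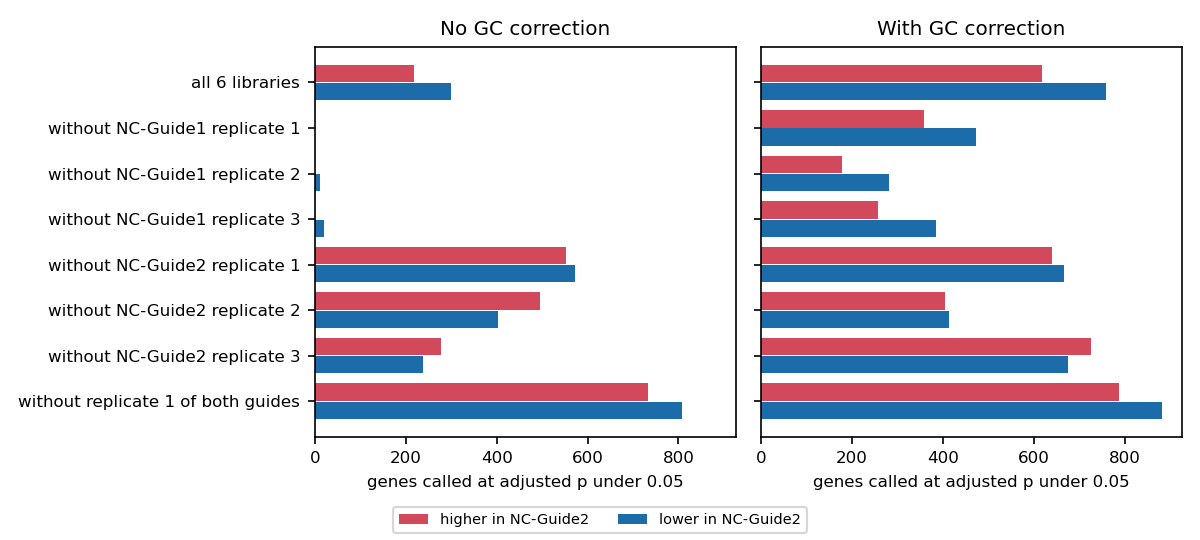
Number of genes called higher (red) and lower (blue) in NC-Guide2 (x axis) with all 6 libraries, with each library left out and with replicate 1 of both sgRNAs left out (y axis), without (left) and with (right) the correction for GC content. Uncorrected counts run from 0 without NC-Guide1 replicate 1 to 1542 without replicate 1 of both sgRNAs, and corrected counts from 461 to 1670.

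The metallothionein genes that were called were lower in NC-Guide2. Of 10 genes listed, 9 were in the table and 5 were tested, MTF1 among them. Of these, 2 were called lower and 0 higher. MT2A, on chromosome 16 at 56642478 to 56643409 (hg19, plus strand, 3 exons), stood at 34.4, 40.6 and 36.9 CPM in NC-Guide1 and at 9.90, 13.3 and 19.1 CPM in NC-Guide2. Every NC-Guide2 library was far below every NC-Guide1 library. The means were 37.3 ± 3.15 and 14.1 ± 4.63 CPM (SD, n = 3 each), and the gene fell by 1.40 on the log2 scale (SE 0.18, edgeR Benjamini-Hochberg adjusted p = 0.00523). MT1X, in the same cluster at 56716382 to 56718108 (hg19, plus strand, 3 exons), stood at 18.9, 15.4 and 14.7 and 5.31, 7.17 and 9.12 CPM, again with no overlap, and fell by 1.15 (SE 0.19, edgeR Benjamini-Hochberg adjusted p = 0.0143). MT1A and MT1G had log2 differences of -1.08 and -0.79 with groups that did not overlap but were not called, with edgeR adjusted p-values of 0.174 and 0.204, and MTF1 had 0.01. Metallothionein genes are alike in sequence, so reads may be shared among them. With the GC correction MT2A stood at -1.32 and MT1X at -1.07 log2, both called. In the uncorrected fit without NC-Guide1 replicate 1 the log2 fold changes were -1.45 and -1.05, and without NC-Guide2 replicate 1 they were -1.21 and -0.98.

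The promoters of both genes are shown because MTF1 acts through metal response elements, whose core is TGCACNC. The windows of 300 bases end shortly after the start site (RefSeq, GRCh38.p14) and run 5′ to 3′ on the gene's strand, with each match to TGCACNC on either strand in capitals. MT2A (chr16:56608334-56608633, plus strand) has 6 matches and MT1X (chr16:56682220-56682519, plus strand) has 2. Of 35116 such windows, 12.1% hold at least 1 match.
MT2A: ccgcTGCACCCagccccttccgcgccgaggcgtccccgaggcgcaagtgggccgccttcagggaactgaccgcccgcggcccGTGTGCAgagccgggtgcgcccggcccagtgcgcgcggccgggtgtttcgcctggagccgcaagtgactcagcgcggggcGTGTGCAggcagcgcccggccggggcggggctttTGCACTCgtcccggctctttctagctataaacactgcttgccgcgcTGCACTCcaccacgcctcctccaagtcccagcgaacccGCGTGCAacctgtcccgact
MT1X: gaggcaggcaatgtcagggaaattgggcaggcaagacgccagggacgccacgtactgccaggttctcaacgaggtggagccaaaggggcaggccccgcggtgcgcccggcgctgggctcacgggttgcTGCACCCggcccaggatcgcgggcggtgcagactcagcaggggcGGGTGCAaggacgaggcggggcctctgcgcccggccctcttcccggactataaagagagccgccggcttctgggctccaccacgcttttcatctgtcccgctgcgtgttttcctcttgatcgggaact

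The called genes of the integrated stress response were also lower in NC-Guide2 than in NC-Guide1. Of 19 listed, 14 were in the table and 13 were tested. Of the 13, 5 were called lower and 0 higher, and all 13 had a log2 fold change below 0, with a median of -0.36 beside -0.01 over all genes tested. ATF5, a relative of ATF4, stood at 546, 383 and 412 CPM in NC-Guide1 and at 135, 193 and 230.4 CPM in NC-Guide2. The lowest NC-Guide1 library was well above the highest NC-Guide2 library, and ATF5 fell by 1.26 (SE 0.16, edgeR Benjamini-Hochberg adjusted p = 0.00523). Its exons overlap IL4I1 and NUP62 on the other strand and contain the microRNA entry MIR4751, and whether counting used strand is not stated. MIR4751 itself was lower by the same measure (log2 -1.38) and its reads cannot be told apart from those of ATF5. NUPR1, a stress-induced chromatin protein, stood at 11.1, 7.89 and 9.50 CPM and at 2.65, 2.84 and 5.05 CPM, without overlap, and fell by 1.40 (SE 0.25, edgeR Benjamini-Hochberg adjusted p = 0.0189). INHBE, a subunit of activin, fell by 0.85 and GDF15, a secreted stress factor, fell by 0.45 (edgeR adjusted p = 0.0208 and 0.0482). With the GC correction GDF15 was at -0.25, still called. In the other 18 libraries of the series the medians of ATF5 and INHBE were 109 and 12.04 CPM. Every NC-Guide2 library lay above these medians, so the falls of ATF5 and INHBE were relative to NC-Guide1. NUPR1 and GDF15 went the other way, with medians of 5.44 and 220 CPM, above every NC-Guide2 library. PPP1R15A, which restores eIF2 after stress, was the fifth called gene, at log2 -0.36. The GC correction ended that call (log2 -0.20, edgeR adjusted p = 0.0845). DDIT3 and CHAC1, targets of ATF4, had log2 differences of -0.30 and -0.13 and were not called. After the GC correction 8 of the 13 were called lower and the median was -0.28. Without NC-Guide2 replicate 1, 6 were called lower, and without NC-Guide1 replicate 1 none was, or 4 with the GC correction.

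Enzymes that ATF4 is known to control were also among the calls. Of 13 genes of amino acid and one-carbon synthesis tested, 3 were called lower and 0 higher, with a list median of -0.19. PHGDH, the entry enzyme of serine synthesis, stood at 654, 544 and 543 CPM in NC-Guide1 and at 278, 366 and 403 CPM in NC-Guide2. All NC-Guide1 libraries were above all NC-Guide2 libraries, and PHGDH fell by 0.73 (SE 0.12, edgeR Benjamini-Hochberg adjusted p = 0.0143). The other 18 libraries of the series ranged from 54.96 to 421 CPM with a median of 119 CPM. NC-Guide1 lay above all of them, and every NC-Guide2 library lay above that median. ALDH1L2, a mitochondrial folate enzyme, fell by 0.45, and ASNS, asparagine synthetase, fell by 0.31 from 1101, 1038 and 1043 to 831, 831 and 899.5 CPM (SE 0.08, edgeR Benjamini-Hochberg adjusted p = 0.0388). PSAT1 and PSPH, also of serine synthesis, had log2 differences of -0.04 and 0.00046 and were not called. MTHFD1, a folate enzyme, was at 0.29 and not called. Of 17 aminoacyl-tRNA synthetase genes tested, AARS (log2 -0.42) and WARS (log2 -0.42) were called lower and none higher, and the list median was -0.05. In the other 18 libraries the medians of ALDH1L2, ASNS, AARS and WARS were 35.9, 223, 635 and 319 CPM, also below every NC-Guide2 library. Of 11 amino acid transporters tested, edgeR called 0, with 5 at an unadjusted p under 0.05, and DESeq2 called 1 higher. PHGDH, ALDH1L2, ASNS, AARS and WARS were still called lower after the GC correction, at log2 -0.67, -0.56, -0.34, -0.34 and -0.36 in this order. Without NC-Guide2 replicate 1 the counts were 1 higher and 5 lower in the synthesis list, with a median of -0.11, and 2 lower among the synthetases.

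Chaperones were split by compartment. In the endoplasmic reticulum, 3 of 12 genes tested were called lower and 0 higher, 11 had a log2 fold change below 0, and the median was -0.24. CALR, calreticulin, stood at 1728, 1551 and 1525 CPM in NC-Guide1 and at 1155, 1226 and 1254 CPM in NC-Guide2. The groups were clearly apart, and CALR fell by 0.40 (SE 0.08, edgeR Benjamini-Hochberg adjusted p = 0.0236). HYOU1, a large chaperone of the HSP70 family, fell by 0.47, and SEL1L, part of the machinery that removes misfolded proteins, fell by 0.44. After the GC correction 8 of the 12 were called lower with a median of -0.27, and without NC-Guide2 replicate 1 the uncorrected count was 6. Without NC-Guide1 replicate 1 the counts were 0 uncorrected and 5 corrected.

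In the cytosol, 2 of 12 heat shock and chaperone genes tested were called higher and 0 lower, with a median of 0.14. HSP90AA1, the inducible HSP90, stood at 1277, 1224 and 1258 CPM in NC-Guide1 and at 2340.3, 1724 and 1632 CPM in NC-Guide2. NC-Guide1 was tight, NC-Guide2 replicate 1 was the highest, and the groups did not overlap. HSP90AA1 rose by 0.60 (SE 0.11, edgeR Benjamini-Hochberg adjusted p = 0.0205) and by 0.53 after the GC correction. HSPH1, an HSP110 chaperone, stood at 58.02, 59.5 and 59.97 CPM and at 138, 92.9 and 78.8 CPM, again without overlap, and rose by 0.80 (SE 0.16, edgeR Benjamini-Hochberg adjusted p = 0.0245). Leaving out NC-Guide2 replicate 1 gave 0.54 for HSPH1 and 0.43 for HSP90AA1, both called. HSPA1A, HSPA1B and DNAJB1, strongly heat-inducible genes, had log2 differences of -0.05, -0.02 and 0.07 and were not called, and the first 2 are near-identical copies whose counts are uncertain. DNAJA1, an HSP40 co-chaperone, was at 0.48 (edgeR adjusted p = 0.0547). After the GC correction 4 of the 12 were called higher, with or without NC-Guide1 replicate 1, while the uncorrected fit without it called none.

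The window of HSP90AA1 is shown for the heat shock element, searched as GAANNTTCNNGAA (RefSeq, GRCh38.p14, matches on either strand in capitals). The window chr14:102086995-102087294 (minus strand) holds 1 match, and that of the other start site of the gene holds none. Of 35116 windows, 0.490% hold at least 1.
HSP90AA1: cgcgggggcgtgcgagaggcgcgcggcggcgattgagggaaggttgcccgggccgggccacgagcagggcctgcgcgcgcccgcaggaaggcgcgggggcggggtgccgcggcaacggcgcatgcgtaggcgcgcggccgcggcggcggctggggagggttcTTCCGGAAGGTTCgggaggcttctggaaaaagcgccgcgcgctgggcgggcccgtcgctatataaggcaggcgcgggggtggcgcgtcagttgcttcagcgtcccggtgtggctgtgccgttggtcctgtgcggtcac

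**Figure D4:**
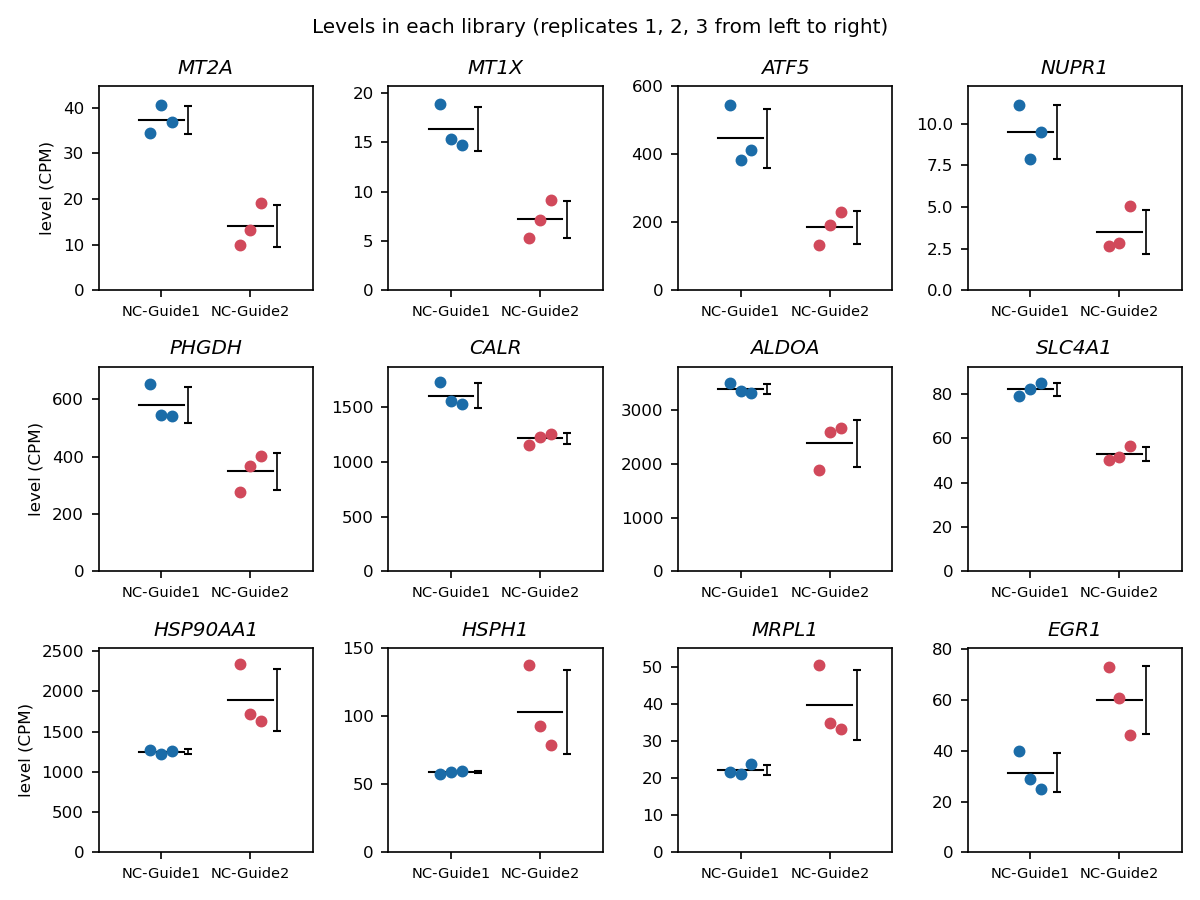
Level in CPM (y axis, from 0) of 12 genes in each of the 6 libraries (x axis, by sgRNA, replicates 1, 2 and 3 from left to right); lines are means and bars SDs of 3 libraries. NC-Guide2 lies below NC-Guide1 without overlap for MT2A, MT1X, ATF5, NUPR1, PHGDH, CALR, ALDOA and SLC4A1, and above it for HSP90AA1, HSPH1, MRPL1 and EGR1.

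The called genes of ribosome assembly were higher in NC-Guide2. This list, like those of splicing factors, initiation factors, the CCT chaperonin and vesicle coats, was added after the values had been seen, so its counts describe and carry no test. Of 40 ribosome biogenesis genes tested, 14 were called higher and 0 lower, 39 had a log2 fold change above 0, and the median was 0.36. UTP15, a subunit of the small-subunit processome, stood at 15.8, 13.3 and 15.01 CPM in NC-Guide1 and at 29.3, 22.6 and 23.1 CPM in NC-Guide2. All 3 NC-Guide2 libraries were higher, and UTP15 rose by 0.77 (SE 0.15, edgeR Benjamini-Hochberg adjusted p = 0.0214). BRIX1, a factor of the large subunit, rose by 0.67, DDX18, a nucleolar helicase, by 0.57, and POLR1B, a core subunit of RNA polymerase I, by 0.43. NOB1, an endonuclease of late assembly, was the exception at -0.25 and was not called. The median was 0.33 after the GC correction, with 27 called higher, and 0.31 without NC-Guide2 replicate 1, with 20 called higher. Without NC-Guide1 replicate 1 none was called, or 20 with the GC correction. Cytosolic ribosomal protein genes had a median of 0.01 over 58 tested. Neither edgeR nor DESeq2 called any of them, and 10 had an unadjusted p under 0.05 in edgeR. Without replicate 1 of both sgRNAs 6 were called higher, or 4 with the GC correction.

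The called genes of splicing, and all but 1 of those of translation initiation, were higher as well. Of 23 hnRNP and SR protein genes tested, 6 were called higher and 0 lower, with a median of 0.34 and, after the correction, 0.19. The number called higher was 12 with DESeq2, 12 without NC-Guide2 replicate 1 (median 0.22), 9 with the GC correction, and 5 with it and without NC-Guide1 replicate 1. HNRNPA2B1, an abundant RNA-binding protein, stood at 662, 668 and 678 CPM in NC-Guide1 and at 1254, 856 and 829.8 CPM in NC-Guide2. Replicate 1 was the highest NC-Guide2 library, the groups were apart, and the gene rose by 0.55 (SE 0.13, edgeR Benjamini-Hochberg adjusted p = 0.032). Without NC-Guide2 replicate 1 its log2 fold change was 0.34. Of 27 initiation factor genes tested, 6 were called higher and 1 lower, or 9 and 1 without NC-Guide2 replicate 1. EIF5B, a GTPase of subunit joining, stood at 163, 161 and 172 CPM and at 419, 211 and 223 CPM. NC-Guide2 replicate 1 was far above the other libraries of its group, which still exceeded all of NC-Guide1. EIF5B rose by 0.78 (SE 0.19, edgeR Benjamini-Hochberg adjusted p = 0.0402), and by 0.40 without that library. EIF1, which governs start codon choice, was the called fall at -0.30. Of 6 CCT chaperonin genes tested, CCT6A was called higher (log2 0.41) and all 6 were above 0. The number called higher was 4 with DESeq2, 4 with the GC correction and 4 without NC-Guide2 replicate 1.

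Called subunits of the COPI and COPII coats, which carry vesicles between the endoplasmic reticulum and the Golgi, were lower. Of 17 tested, 3 were called lower and 0 higher, with a median of -0.23. SEC24D, a cargo adaptor of COPII, stood at 103, 94.8 and 90.7 CPM in NC-Guide1 and at 52.1, 56.6 and 64.02 CPM in NC-Guide2. The groups were far apart, and SEC24D fell by 0.74 (SE 0.11, edgeR Benjamini-Hochberg adjusted p = 0.00826). COPG1 and COPA, subunits of COPI, were also called lower (log2 -0.41 and -0.33). After the GC correction 12 of 17 were called lower and the median was -0.31. Without NC-Guide2 replicate 1, 8 were called lower in the uncorrected fit, and without NC-Guide1 replicate 1 none was, or 7 with the GC correction.

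In the uncorrected fit on 6 libraries, the share of mitochondrial genes called was near the 4.21% called in either direction over all genes tested. All of these calls were rises, and 1.78% of all genes tested were called higher. Of 39 mitochondrial ribosomal protein genes tested, 2 were called higher and 0 lower, and 37 had a log2 fold change of 0 or more, with a median of 0.20. MRPL1 stood at 21.7, 21.2 and 23.9 CPM in NC-Guide1 and at 50.6, 35.1 and 33.5 CPM in NC-Guide2, without overlap. It rose by 0.83 (SE 0.15, edgeR Benjamini-Hochberg adjusted p = 0.0205), and MRPL19 by 0.45, or 0.28 with the GC correction. Of 40 respiratory chain genes tested, CYCS, cytochrome c, rose by 0.59 and COX7B, a subunit of cytochrome c oxidase, by 0.34, and none was called lower. The GC correction ended the call of COX7B (log2 0.22, edgeR adjusted p = 0.0685). With the correction 13 mitochondrial ribosomal and 6 respiratory chain genes were called higher, beside 618 of all 12318 genes tested. Without NC-Guide2 replicate 1 the uncorrected counts were 11 and 15, beside 552 of all 12567. With the correction and without NC-Guide1 replicate 1 the counts were 5 and 1, beside 358 of all 12549.

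In the lists of sugar use and the hypoxia response, the called members were lower. Of 17 glycolysis and glucose transport genes tested, 3 were called lower and 0 higher. ALDOA, aldolase A, stood at 3497, 3353 and 3318 CPM in NC-Guide1 and at 1875, 2585 and 2662 CPM in NC-Guide2. NC-Guide2 replicate 1 was the lowest, the groups did not overlap, and ALDOA fell by 0.51 (SE 0.11, edgeR Benjamini-Hochberg adjusted p = 0.0273). Without NC-Guide2 replicate 1 the fold change was -0.36, also called. ALDOC and ENO2, isoforms of aldolase and enolase, were called lower (log2 -0.58 and -0.52). GAPDH and PGK1 had log2 differences of -0.16 and -0.08 and were not called. Of 12 hypoxia genes tested, VEGFA, the vascular growth factor, fell by 0.54, and P4HA2, a collagen prolyl hydroxylase, fell by 0.39. The P4HA2 value is uncertain because P4HA2-AS1 overlaps it. The counts called lower were 4 in each of these lists without NC-Guide2 replicate 1. Of 4 targets of the glucose sensor MondoA, TXNIP, an inhibitor of glucose uptake, fell by 0.36. The other members, ARRDC2, ARRDC3 and ARRDC4, had log2 differences of 0.24, 0.13 and 0.02 and were not called, but the GC correction called ARRDC2 higher (0.40, edgeR adjusted p = 0.0137). ALDOA, ALDOC, ENO2, VEGFA, P4HA2 and TXNIP were also called lower with the correction, from -0.37 (P4HA2) to -0.46 (ALDOC).

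The calls in the erythroid lists were in the lower direction in the fit on 6 libraries. Of 10 globin and globin chaperone genes tested, edgeR and DESeq2 called 0, and 1 had an unadjusted p under 0.05 in edgeR. HBG2, a fetal globin gene with a near-identical copy in HBG1, stood at 3805, 3939 and 3883 CPM in NC-Guide1 and at 3437, 4051 and 3755 CPM in NC-Guide2, with overlapping groups. Of 14 erythroid regulators tested, edgeR and DESeq2 also called 0, with 3 at an unadjusted p under 0.05. The GC correction called 1 globin gene and 2 regulators higher, and without NC-Guide2 replicate 1 it called 2 and 2. Of 23 genes of the red cell membrane and blood groups, 2 were called lower, beside 4.21% of all genes in either direction: SLC4A1, the anion exchanger band 3, and ADD2, a membrane skeleton protein. SLC4A1 stood at 79.1, 82.1 and 85.2 CPM and at 50.4, 51.8 and 56.8 CPM. Both groups were tight and well apart, and the gene fell by 0.63 (SE 0.10, edgeR Benjamini-Hochberg adjusted p = 0.0103). Of 11 genes of heme synthesis and 12 of iron handling, 1 and 2 were called, all lower. SLC25A37, the mitochondrial iron importer, fell by 0.49, TFR2, an iron sensor, fell by 0.48, and HEPH, a ferroxidase, fell by 0.34. TFR2 was at -0.30 with the GC correction. That correction called 5 membrane, 2 heme synthesis and 5 iron handling genes lower, and the uncorrected fit without NC-Guide2 replicate 1 called 3, 2 and 4. In a separate list, KIT, the stem cell factor receptor, fell by 0.72 as the 1 call among 7 progenitor regulators tested, whose median was -0.04. These 6 genes, SLC4A1 to KIT, were also called lower after the GC correction.

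Cell cycle and signalling genes gave scattered calls, and most counts lay near the share over all genes tested. That share, in either direction, was 4.21% in the main fit, 8.63% with DESeq2 and 11.2% with the GC correction. CCNB1, cyclin B1, rose by 0.34 as the 1 call among 16 genes of G2 and M phase, whose median was 0.19, or 0.11 with 2 called higher after the GC correction. CDT1, a replication licensing factor, fell by 0.62 as the 1 call among 16 S phase genes, whose median was 0.13. DESeq2 and the GC correction each called 3 S phase genes higher and 1 lower, and CDT1 was at -0.41 with the correction. EGR1, an immediate early transcription factor, stood at 39.9, 29.003 and 25.2 CPM in NC-Guide1 and at 72.98, 60.9 and 46.3 CPM in NC-Guide2. The groups did not overlap, and its rise of 0.96 (SE 0.18, edgeR Benjamini-Hochberg adjusted p = 0.0203) was the only call among 14 immediate early genes tested. FOS was at 0.86 with an edgeR adjusted p of 0.351. Of 13 p53 targets tested, BBC3 and TNFRSF10B, both inducers of cell death, were called lower (log2 -0.58 and -0.52, or -0.32 and -0.49 with the GC correction). IRF9 fell by 0.55 as the 1 call among 14 interferon response genes, whose median was -0.38 and, without NC-Guide2 replicate 1, -0.16. With the GC correction 3 of the 14 were called lower, and without NC-Guide1 replicate 1 as well it called 0. HIST2H2BE fell by 0.45 as the 1 call among 13 histone genes. TNFRSF10B overlaps RHOBTB2 on the other strand, so its value is uncertain.

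**Figure D5:**
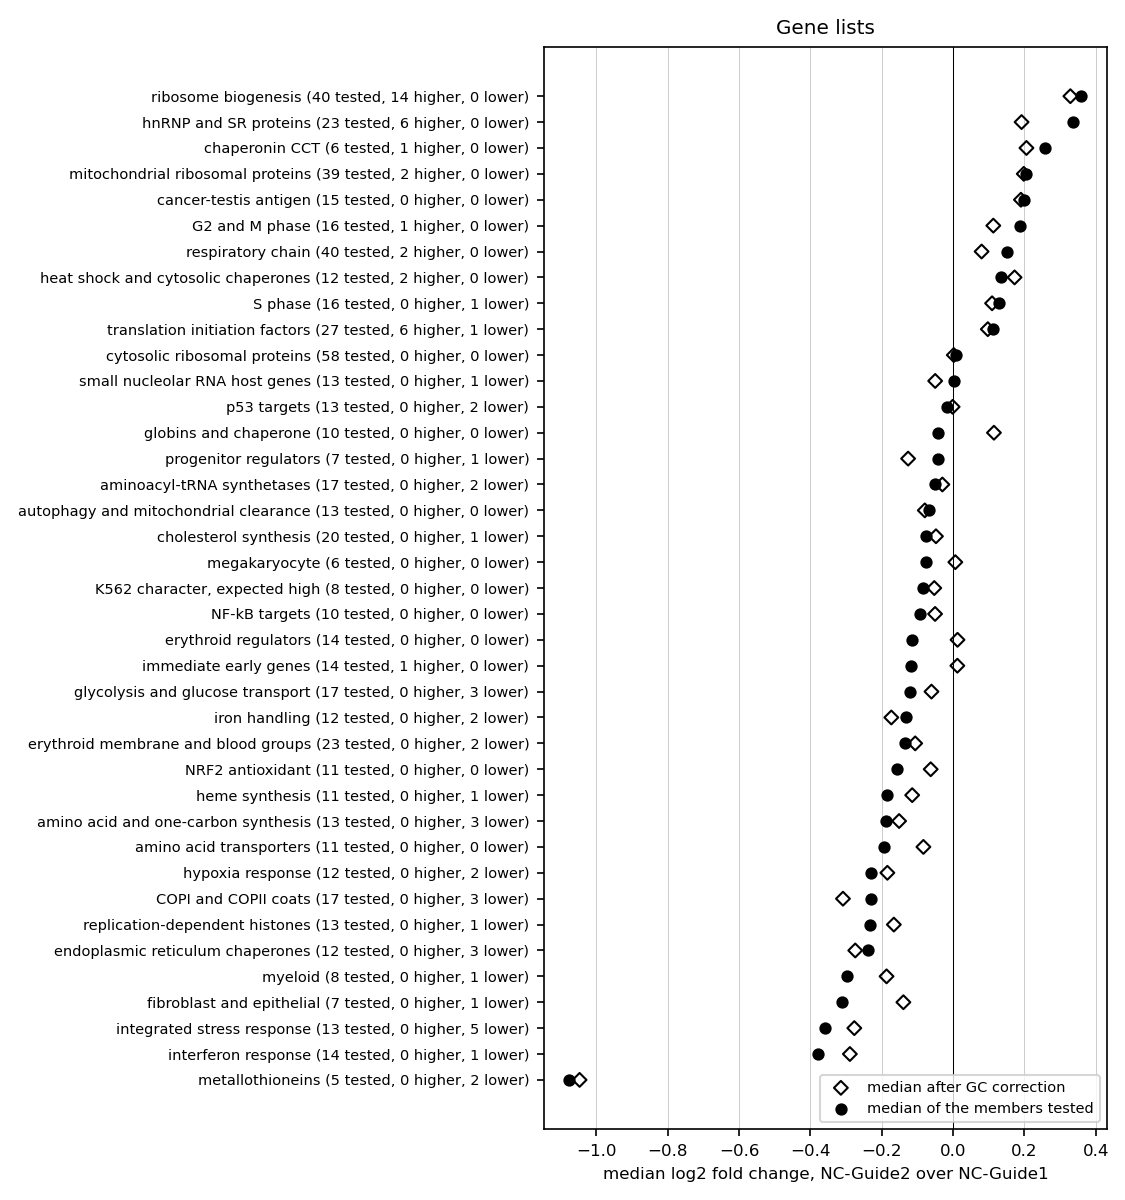
Median log2 fold change of NC-Guide2 over NC-Guide1 (x axis) over the tested members of each gene list with at least 5 of them (y axis, with the numbers tested and called), from all 6 libraries (filled circles) and after the correction for GC content (open diamonds). The medians run from 0.36 for ribosome biogenesis to -1.08 for metallothioneins.

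Markers of other cell types were read beside these groups. The summed level of 15 myeloid markers was 187 to 211 CPM in NC-Guide1 and 167 to 173 CPM in NC-Guide2, and 2 of the 15 were at 0 in all 6 libraries. That of 13 fibroblast and epithelial markers was 1872 to 2263 CPM and 1621 to 1770.2 CPM, and 2 of the 13 were at 0 in all 6 libraries. VIM, which K562 expresses itself, made up much of this sum and fell by 0.46, and CSF3R, a granulocyte receptor, fell by 0.95. The part of other cell types in the results was not tested beyond these values.

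CPZ, a secreted carboxypeptidase, stood at 22.95, 10.8 and 11.5 CPM in NC-Guide1 and at 3.06, 4.26 and 4.81 CPM in NC-Guide2. NC-Guide1 replicate 1 was by far the highest library and the groups did not overlap. CPZ fell by 1.84 (SE 0.28, edgeR Benjamini-Hochberg adjusted p = 0.0103). Without that library the log2 difference was -1.45 and was not called. PRSS8, a membrane serine protease, fell by 1.43, IL20RB, an interleukin receptor subunit, fell by 1.41, and UNC5B, a netrin receptor, fell by 1.40. FAM178B, which had the smallest p of all genes, stood at 691, 728 and 774 CPM and at 274, 382 and 430.4 CPM. All NC-Guide1 libraries were far above all NC-Guide2 libraries, and it fell by 1.01 (SE 0.13, edgeR Benjamini-Hochberg adjusted p = 0.00523). AKNA, an AT-hook protein, LRP1, an endocytic receptor, and S100P, a calcium-binding protein, were called lower (log2 -1.17, -1.18 and -1.23). MYO15B, LINC01512 and AZU1 were called lower too, at log2 -1.35, -1.27 and -1.10. LRP1 overlaps LRP1-AS and MYO15B overlaps RECQL5 on the other strand.

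ALKBH8, a tRNA methyltransferase, stood at 4.65, 7.54 and 4.93 CPM in NC-Guide1 and at 12.5, 9.61 and 10.2 CPM in NC-Guide2. All NC-Guide2 libraries were higher, and it rose by 0.88 (SE 0.21, edgeR Benjamini-Hochberg adjusted p = 0.0368). QTRTD1, a subunit of the tRNA transglycosylase that inserts queuine, rose by 0.79, LARP7, which holds the 7SK RNA, by 0.78, and GTF3C6, a subunit of the RNA polymerase III factor TFIIIC, by 0.76. SRFBP1, COMMD8, LLPH, SETD9, PBDC1 and NAP1L5 rose by between 0.75 (NAP1L5) and 0.85 (SRFBP1). LARP7 overlaps ZGRF1 and LLPH overlaps LLPH-AS1 on the other strand, so these values are uncertain. The rises of LARP7 and LLPH without NC-Guide2 replicate 1 were 0.44 and 0.50. After the GC correction the rises of ALKBH8, QTRTD1, LARP7 and GTF3C6 were 0.72, 0.70, 0.58 and 0.72, all called.

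Set against the other libraries of the series, each of the 2 sgRNAs stood apart for a share of the genes called. Among the called genes, 502 averaged 5 CPM or more, and of these 207 had all 3 libraries of 1 sgRNA above, or all 3 below, the other 21 libraries. NC-Guide1 was above for 79 genes and below for 41, and NC-Guide2 was above for 57 and below for 31, with UTP15 counted under both. Only genes already called between these sgRNAs were looked at, which favours such genes. The share over all genes tested, or for another sgRNA, was not counted, so these numbers are a description only. UNC5B ran from 72.8 to 127 CPM (TMM over 24 libraries) in NC-Guide1 and from 11.2 to 53.3 CPM in the other 21. AKNA ran from 132 to 197 CPM in NC-Guide1, and its median in the other 21 was 34.7 CPM. These genes, with MT2A, MT1X, IL20RB and ATF5, were above all other libraries in NC-Guide1, while no NC-Guide2 library was below the range of the other 18. HSP90AA1 and HSPH1 were below all other libraries in NC-Guide1, where HSP90AA1 ran from 1219 to 1278 CPM against 1385 to 2382 CPM. CPZ was low in NC-Guide2, at 3.10 to 4.82 CPM against 5.87 to 37.99 CPM, and MRPL1 was high there, at 33.6 to 51.2 CPM against 16.7 to 30.6 CPM.

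The same fit was made for the other pairs of sgRNAs with the same label, each on its own 6 libraries. NC-Guide4 against NC-Guide3, the other non-targeting pair, gave 0 calls of 12448 genes in edgeR and in DESeq2, with 145 genes at an unadjusted p under 0.05. Its common dispersion, the squared coefficient of variation between replicates, was 0.0198, against 0.0107 for NC-Guide1 and NC-Guide2. The eHDAC6 sgRNAs gave 73 calls (0.590%), and the GATA1TSS sgRNAs gave 583 (4.50%). The log2 fold change had a Spearman rho with GC content of 0.0637, 0.0201 and -0.160 in these 3 pairs. Whether the pairs differed in their number of calls was not tested.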

How the data were processed

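The authors deposited a table of whole-number counts per gene symbol, 1 column per library, and hg19 RefSeq transcript models. Per the submitters' processing notes the build was hg19 and the tools were TopHat2 2.0.8, Bowtie2 2.1.0, SAMtools 0.1.19 and Picard. No counting tool, and no use of strand in counting, is named there. RNA sequencing was paired-end and strand-specific, per the labels' protocols.

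Libraries were grouped by their labels. The counts were tested as deposited with edgeR 4.0.16 (R 4.3.3) on the 6 libraries: TMM scaling, its filter on low counts (minimum count 10, minimum total 15, proportion 0.7), quasi-likelihood F tests and Benjamini-Hochberg adjustment over all genes tested. Standard errors were derived from the F statistic. Libraries of 7327820 counts or more set the precision of low values. The script was tested on simulated data. TMM factors ran from 0.970 to 1.01, and the coefficient of variation between replicates was 10.4%. Alternatives were other scalings and filters, DESeq2 1.42.0, voom (limma 3.58.1), thinned counts, larger fits, a replicate block, leaving libraries out, and, added after the data had been seen, a correction for GC content. The correction removed a loess curve (span 0.5) of each library's deviations on the GC content of the longest transcript of a gene. This content was known for 95.4% of the genes tested, and the other genes got no curve. The shifts were then centred in each library, so those other genes moved by a constant per library. LINC01512, for example, was at log2 -1.27 before and -1.30 after.

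Named genes were GATA1 and HDAC6, the 15 largest rises and falls among calls that average 5 CPM or more and whose groups do not overlap, the 5 smallest p-values, up to 4 called members per list and up to 10 genes outside the range of all other libraries. The members and the 38 gene lists were chosen with earlier results of these data known, and 5 further lists were added later. Members of those 5 lists, uncalled list members, PPP1R15A and the promoters shown were picked after their values were seen. The 21 entries named by a date, not a symbol, hold 0.196% of the counts. They stayed in the fits and are not named. Genes of chromosomes 20, 21 and 22 were not analysed here, nor were ATF4, TRIB3 and XBP1.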

Additional observations from a re-analysis of the deposited data

How the results depend on the processing

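The count of 519 calls was 1444 with no filter on low counts, 1063 with DESeq2, 183 in a fit on all 12 NC libraries, 1155 in a fit on all 24, 9 at an adjusted p under 0.01 and 11 for changes beyond 1.2-fold. It ran from 0 to 1124 with each library left out and was 1542 without replicate 1 of both sgRNAs. With the GC correction it was 1376, ran from 461 to 1401 with each library left out (832 without NC-Guide1 replicate 1, 1307 without NC-Guide2 replicate 1 and 818 without NC-Guide2 replicate 2) and was 1670 without replicate 1 of both. Upper-quartile factors kept the total (523) but gave 173 higher and 350 lower. In a fit with a replicate block edgeR called 234 genes, 78 higher and 156 lower. Same-numbered libraries had correlations of -0.128, -0.0525 and -0.0110 in their deviations, and the main fit did not pair libraries by number. On principal component 2, however, replicate 1 of both sgRNAs lay on the same side, apart from all other libraries. Whether the replicate numbers mark something shared between the sgRNAs was not tested. All 519, where tested, kept their sign under every alternative run, but nearly all have groups that do not overlap, so this carries no test.

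The 45 calls among 524 genes of the first 38 lists (8 higher, 37 lower, 8.59%) were 97 with no filter, 72 with DESeq2, 14 in the fit on 12 NC libraries, 0 to 102 with each library left out, 141 without replicate 1 of both sgRNAs, 112 with the GC correction, 53 to 123 with it and each library left out (73 without NC-Guide1 replicate 1 and 71 without NC-Guide2 replicate 2), and 151 with it and without replicate 1 of both. GATA1, at -0.17 and not called, changed sign under the GC correction without NC-Guide1 replicate 2 (0.00486), NC-Guide2 replicate 1 (0.0288), NC-Guide2 replicate 3 (0.00813) or replicate 1 of both (0.0144). The eHDAC6 pair gave 111 calls with no filter, 130 with a replicate block and 31 to 87 with each library left out. The GATA1TSS pair gave 943 with the GC correction and 146 to 1083 with each library left out. The NC-Guide4 and NC-Guide3 pair kept 0 in each edgeR and DESeq2 fit run. The causes of these shifts were not tested. The least deep library, NC-Guide1 replicate 1, limits low genes.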

Other observations

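A few RNA genes and smaller lists were not described above. Over all genes tested, 4.21% were called in either direction in the main fit, 8.63% with DESeq2 and 11.2% with the GC correction. SNHG8, a host gene of a small nucleolar RNA, stood at 78.9, 61.7 and 61.3 CPM in NC-Guide1 and at 41.7, 39.2 and 43.01 CPM in NC-Guide2, with no overlap. It fell by 0.70 on the log2 scale (SE 0.12, edgeR Benjamini-Hochberg adjusted p = 0.0153) as the 1 call among 13 such host genes, whose median was 0.00291. KCNQ1OT1, an imprinted antisense RNA within KCNQ1, fell by 0.64, with the same limit on strand as for the other overlapping genes. Of 15 cancer-testis antigen genes tested, edgeR called 0, with 3 at an unadjusted p under 0.05, and DESeq2 called 3 higher, beside a list median of 0.20. Of 20 cholesterol synthesis genes tested, 1 was called lower and the list median was -0.08. On all 6 libraries without the GC correction, neither edgeR nor DESeq2 called any of 11 NRF2 antioxidant genes, 10 NF-kB targets or 13 genes of autophagy and mitochondrial clearance, and 3, 3 and 4 of them had an unadjusted p under 0.05 in edgeR. The GC correction called 1 NRF2 gene, 0 NF-kB targets and 1 autophagy gene lower, and edgeR called 2 NRF2 genes lower without NC-Guide2 replicate 1.

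Some further genes, chosen after their values were seen, lay outside the range of the other 21 libraries (CPM with TMM over 24 libraries). ERBB3, a receptor tyrosine kinase, ran from 7.53 to 7.81 CPM in NC-Guide2 and from 8.75 to 18.6 CPM elsewhere. PLAU, the urokinase plasminogen activator, ran from 4.33 to 6.37 CPM in NC-Guide2 and from 6.98 to 38.5 CPM elsewhere, with a median of 28.03 CPM there. Its log2 difference between NC-Guide2 and NC-Guide1 was -0.78. SUB1, a transcription coactivator, ran from 188 to 288 CPM in NC-Guide2 against 127 to 187 CPM. PAPPA, a secreted metalloprotease, ran from 15.1 to 16.3 CPM in NC-Guide1 against 4.03 to 11.1 CPM. These ranges are descriptions of 3 libraries against 21 and carry no test.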
